A study of Boehmeria nivea with 2 samples.

Results

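The inhibitors of wall-degrading enzymes described here are 3 unigenes of ramie leaves. They are the 2 polygalacturonase inhibitor (PGIP) unigenes comp24833_c0 and comp27076_c0 and the xyloglucanase inhibitor unigene comp36158_c1, out of 46,533 unigenes in all. They were picked as the wall-enzyme inhibitors among the inhibitor genes that the study lists as responding to the ramie moth (RM). They were thus chosen by their read counts and RPKM in these same libraries, so their difference is given as a description, without a test.

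Ramie (Boehmeria nivea) is a fiber crop, and RM (Cocytodes coerulea) is a moth whose larvae eat its leaves. The study asked which leaf transcripts differ between plants with and without larvae. Plants of the cultivar Chuanzhu No.8 were 30 days old and had been propagated from shoot cuttings. Challenged plants (CH) received 2 J2 larvae, fasted beforehand, on the fourth leaf from the apex, and control plants (CK), titled mock-challenged, were left unchallenged. The topmost 2 undamaged leaves were taken at 12, 24, 48 and 72 h, from 5 plants at each time, and the RNA of all times was mixed in equal amounts into 1 library per group. The sequenced leaves were thus undamaged ones, and these pools hide both the time course and the spread from plant to plant.

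Plant cell walls hold pectin and xyloglucan, and many microbes and some plant-feeding insects secrete enzymes that cut these polymers. PGIPs are leucine-rich repeat proteins of the cell wall that bind polygalacturonases, the enzymes that cut the pectin backbone, and slow them. Xyloglucanase inhibitors are secreted proteins that bind microbial xyloglucan-specific endoglucanases. They share the fold of aspartic proteases and belong with the soybean seed protein basic 7S globulin and the carrot protein EDGP.

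The counted fragments, called reads below, summed to 17,800,062 in CK and 26,938,918 in CH. RPKM is the number of reads per kilobase of effective unigene length and scaled to the total reads of the library. With 1 library per group no difference has a replicate check, and every interval below is an exact 95% interval that covers counting error only. Leaf transcripts were present in both libraries, but at a lower share in CH. Chlorophyll a-b binding proteins (52 unigenes) took 3.66% of all reads in CK but 1.71% in CH, rubisco activase (14) took 2.47% and 0.996%, and the rubisco small chain (11) took 1.44% and 0.337%. Unigenes with a best hit to a fungus or an oomycete, 701 in number, took 0.135% of reads in CK against 0.240% in CH. Of them, 304 and 643 had at least 1 read, where 37,321 and 40,172 of all unigenes did. These numbers are not adjusted for the greater depth of CH. No unigene had a best hit to one of the insect genera searched. The part of these shifts in the differences described below was not tested. In bulk leaf RNA, a change in the cells that make a transcript and a change in the transcript per cell cannot be told apart.

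The PGIP unigene comp24833_c0 went from nearly absent in CK to the top 5% of detected unigenes in CH. Its best hits are a chickpea protein named polygalacturonase inhibitor-like and the PGIP of pear. It had 13 reads in CK and 2,079 in CH, which is 0.58 RPKM (0.31 to 0.99) and 61.33 RPKM (58.7 to 64.0). Per library total this was 106-fold more in CH (61.7 to 199), and the width of the interval comes from the 13 reads of CK. Of the 37,321 unigenes detected in CK, 29.8% had a lower RPKM, against 95.02% of the 40,172 detected in CH. Among the 18,499 unigenes with at least 10 reads in CK, only 1 had a larger ratio of CH to CK. This cut leaves out unigenes with fewer CK reads, such as comp16044_c0 with 1 read in CK and 227 in CH.

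The second PGIP unigene, comp27076_c0, rose from a low to a moderate level. Its best hits are an unnamed peach protein and again the PGIP of pear. It had 29 reads in CK and 244 in CH, or 1.36 RPKM (0.91 to 1.95) and 7.54 RPKM (6.62 to 8.55). The ratio per library total was 5.56 (3.77 to 8.48), and 66 of the 18,499 unigenes had a larger one. Its level lay above that of 52.6% of detected unigenes in CK and of 74.1% in CH.

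The xyloglucanase inhibitor comp36158_c1 showed the smallest difference of the 3. Its best hits are xyloglucanase inhibitor 3 of hop, a relative of ramie in the same plant order, and basic 7S globulin of soybean. It had 69 reads in CK and 262 in CH, or 6.63 RPKM (5.16 to 8.39) and 14.31 RPKM (12.6 to 16.2). The ratio per library total was 2.51 (1.92 to 3.32), so that the lower bound lies under 2-fold, and 378 of the 18,499 unigenes had a larger one.

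The size of the xyloglucanase inhibitor difference depended on how length was treated. The assembly holds 9 transcripts of comp36158_c1, and the length that the authors give, an average over transcripts in each library, was 676.56 bp in CK and 767.53 bp in CH. RPKM divides by the effective length, which was 584.32 bp in CK and 679.55 bp in CH, and the ratio of RPKM was therefore 2.16, against 2.51 for reads per library total. Of the 6,419 unigenes with several transcripts and at least 50 reads in each library, 4.30% had a length shift at least as large in either direction, and the median length ratio was 1.00. Each PGIP unigene has 1 transcript, of 1,346 bp for comp24833_c0 and 1,289 bp for comp27076_c0, and for these the ratios of RPKM and of reads per total were nearly the same. Another unigene of the same assembled component, comp36158_c0, had 1 read in CK and 9 in CH. Its best hit is an unnamed grape protein, and the 2 unigenes may share reads.

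**Figure D1:**
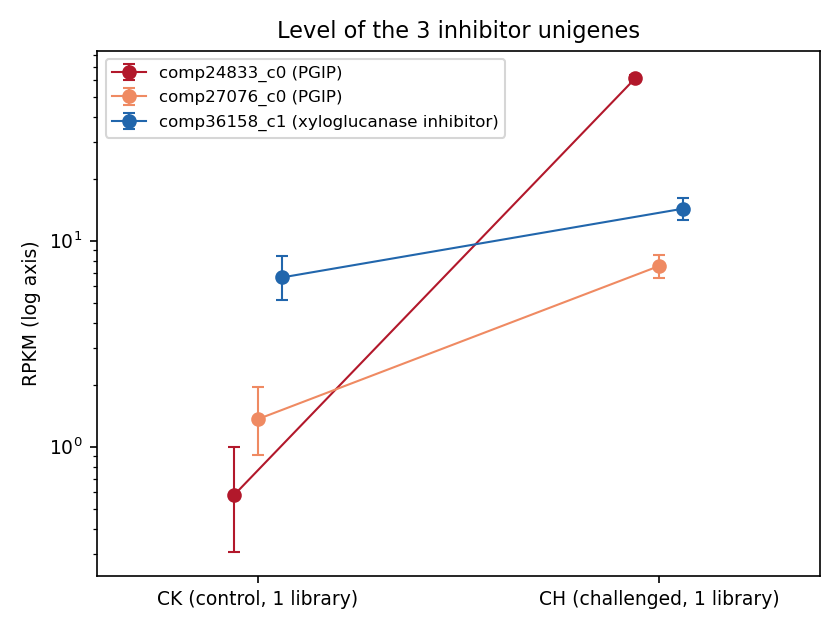
RPKM of the 3 inhibitor unigenes (vertical axis, log scale) in CK and CH, 1 library each, with bars for the exact 95% counting interval. The PGIP comp24833_c0 is the lowest of the 3 in CK (0.58) and the highest in CH (61.33), while comp27076_c0 stays below the xyloglucanase inhibitor comp36158_c1 in both.

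The order of the 3 levels differed between the libraries. In CK the xyloglucanase inhibitor was the highest by RPKM, followed by comp27076_c0 and then comp24833_c0. Its level per length was 4.87 times that of comp27076_c0 (3.12 to 7.80), and that of comp27076_c0 was 2.34 times that of comp24833_c0 (1.18 to 4.90). The RPKM intervals of the PGIP pair overlapped slightly in CK, between 0.91 and 0.99. In CH comp24833_c0 came first, at 4.29 times the level of the xyloglucanase inhibitor (3.77 to 4.89) and 8.13 times that of comp27076_c0 (7.12 to 9.33). The xyloglucanase inhibitor still exceeded comp27076_c0 in CH, by 1.90 times (1.59 to 2.27).

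The call rule had 2 conditions. It uses the Audic-Claverie test, which is 1 of the methods that the study names beside DESeq, so the calls need not be those of the study. RPKM had to differ at least 2-fold, and the adjusted p of a 2-sided Audic-Claverie test on reads had to be below 0.01, with Benjamini-Hochberg adjustment across the 43,302 unigenes with at least 1 read. This test compares the libraries and not the conditions. All 3 inhibitors met the rule for higher unigenes, as did 2.48% of all unigenes tested, while 4.28% were called lower. Since they were chosen for this contrast, nothing is read from their count. All 3 had between 10 and 100 reads in CK. Of the 6,624 unigenes in that range, 5.66% had at least 2-fold more RPKM in CH. This is the share for any ratio of 2 or more at such a depth, and not for ratios as large as those of the PGIP pair.

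**Figure D2:**
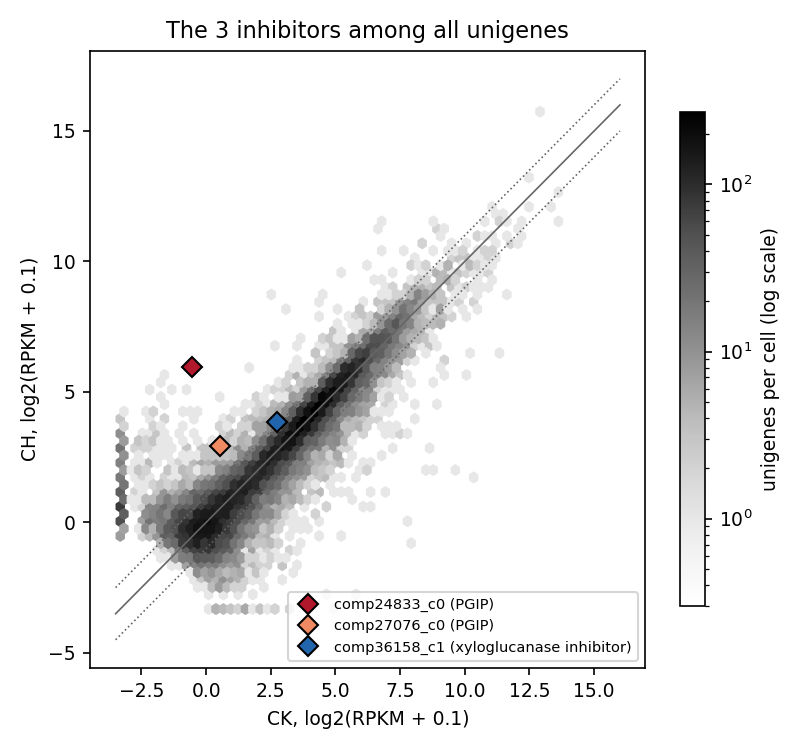
Level in CK (horizontal axis) against CH (vertical axis), both as log2(RPKM + 0.1), for the 23,653 unigenes whose reads summed to at least 10, as shaded cells, with the 3 inhibitors as diamonds. The solid line marks equal levels and the dotted lines 2-fold differences. The PGIP comp24833_c0 lies far above the upper dotted line, comp27076_c0 clearly above it, and comp36158_c1 just beyond it.

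The annotation of the PGIP unigenes was alike and that of the xyloglucanase inhibitor was separate. The PGIP unigene comp24833_c0 carried 37 Gene Ontology terms and comp27076_c0 carried 46, of which 32 were shared, among them polygalacturonase inhibitor activity, plant-type cell wall, defense response to fungus and jasmonic acid mediated signaling. The xyloglucanase inhibitor carried 8 terms, among them defense response and response to other organism, and 0 terms were common to all 3. These terms were transferred from similar proteins and are not measurements in ramie. None of the 3 had a COG or KEGG entry.

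Most of the other PGIP unigenes were barely detected. The words polygalacturonase inhibitor were found in the best hits of 7 unigenes, and the 5 beyond the pair above had summed levels of 2.94 RPKM in CK and 3.03 RPKM in CH. The full list had 4.88 RPKM in CK and 71.9 RPKM in CH. The PGIP comp24833_c0 took 13 of the 69 reads of the list in CK, or 18.8% (10.4 to 30.1), and 2,079 of 2,390 in CH, or 87.0% (85.6 to 88.3). The share of comp27076_c0 was 42.0% in CK (30.2 to 54.5) and 10.2% in CH (9.02 to 11.5). Thus the PGIP reads of CK were spread over several unigenes, and those of CH came mostly from 1 of them.

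Among these 5, only comp187743_c0 was called higher, and none was called lower. It has a best hit to a PGIP of melon, with 13 CK reads and 50 CH reads (0.67 and 1.69 RPKM) and a ratio of 2.54 (1.36 to 5.10). This call was lost with an exact binomial test, and with an assumed variation between libraries. The unigene comp601835_c0, similar to a citrus PGIP, had 2 CK reads and 10 CH reads, and its ratio was 3.30 (0.70 to 31.0). Similar to a bean PGIP, comp757067_c0 had 6 and 4 reads, and comp729281_c0, whose best hits are those of comp27076_c0, had 4 and 3. The last, comp23920_c0, went from 2 reads to 0. At these depths no difference was detectable for the 4 unigenes that were not called. The term polygalacturonase inhibitor activity was given to 9 unigenes, 6 of them in this list. The other 3 have best hits to other proteins and had at most 1 read in a library.

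The xyloglucanase inhibitor family was more abundant than the PGIPs in both libraries, and comp36158_c1 was a minor part of it. Words for xyloglucanase inhibitors, basic 7S globulin, EDGP and xylanase inhibitors were found for 9 unigenes, which summed to 90.59 RPKM in CK and 275.68 RPKM in CH. The share of comp36158_c1 in the reads of the family was 4.10% in CK (3.21 to 5.16) and 3.18% in CH (2.82 to 3.59).

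The highest RPKM of the family was that of comp32457_c0, similar to a grape basic 7S globulin-like protein. It went from 703 to 5,423 reads (33.11 and 168.17 RPKM) and was 5.10-fold higher (4.71 to 5.52), where comp36158_c1 was 2.51-fold higher. It took 41.8% of the family reads in CK (39.4 to 44.2), where the longer comp37259_c1 had more reads (780), and 65.9% in CH (64.9 to 66.9).

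Of the 8 family unigenes other than comp36158_c1, 7 had reads, 3 were called higher and 0 lower, against 2.48% and 4.28% of all unigenes tested. The basic 7S globulin-like comp29897_c0 went from 62 to 314 reads (2.84 and 9.48 RPKM), and its ratio was 3.35 (2.54 to 4.47). The third, comp28364_c0, is a second unigene with xyloglucanase inhibitor 3 of hop as its best hit. It had no read in CK against 21 in CH. Its ratio was 4.63 when set against a floor of 3 reads in CK, and the exact interval, which takes in the counting error of the 21 reads, had a lower bound of 3.44.

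A pair of unigenes similar to xyloglucanase inhibitor 2 of hop stayed below the 2-fold threshold. The longer, comp37259_c1, went from 780 to 2,033 reads (29.39 and 50.48 RPKM), with a ratio of 1.72 (1.58 to 1.87), and comp27120_c1, of 295 bp, had 65 and 167 reads, a ratio of 1.70 (1.27 to 2.30). Both may be pieces of 1 transcript and may share reads. Over the 4 unigenes of this family, beside comp36158_c1, with at least 10 reads in each library, the median log2 ratio was 1.26. It was 1.74 with comp28364_c0, which reached 10 reads only in CH, while over all unigenes it was −0.04 for the 17,746 with at least 10 reads in each library and −0.01 for the 23,653 whose reads summed to at least 10. Where libraries were assumed to vary with a coefficient of variation of 0.4, 0 of the 3 calls were made. The remaining 3 unigenes had few reads. They were comp815_c0 with 1 and 6, comp998480_c0 with 2 and 3, and comp815_c1 with 0 in both.

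**Figure D3:**
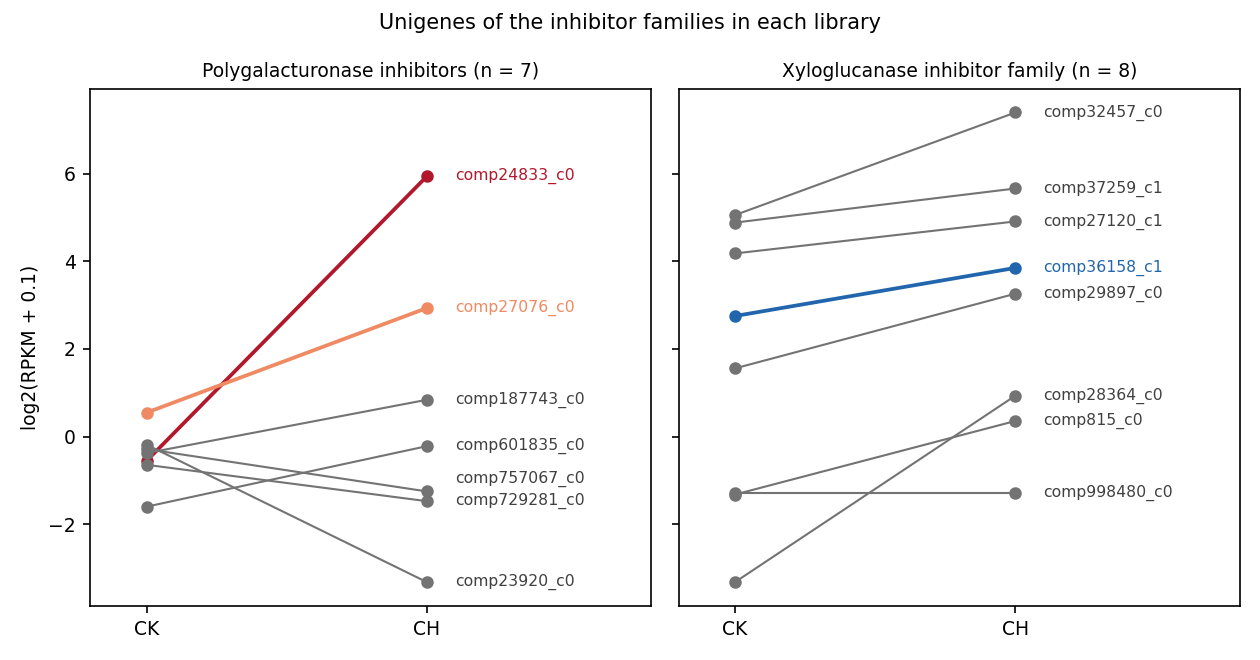
Levels as log2(RPKM + 0.1) (vertical axis) in CK and CH, 1 line per unigene, for the 7 polygalacturonase inhibitor unigenes and the 8 unigenes of the xyloglucanase inhibitor family with reads. Colored lines are the 3 inhibitors chosen. On the left comp24833_c0 rises out of a group of unigenes near the bottom, and on the right comp36158_c1 runs below comp32457_c0, comp37259_c1 and comp27120_c1.

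Unigenes named as enzymes that act on pectin, xyloglucan and cellulose were mostly not called, and calls among them were mostly lower in CH. Polygalacturonases, the class of enzyme that PGIPs bind, for instance when it comes from microbes, had 31 unigenes with reads. Of these, 0 were called higher, 6 were called lower and 25 had no call. Among all unigenes with reads, 2.48% were called higher and 4.28% lower. Similar to polygalacturonase At1g48100, comp35025_c0 fell from 338 to 57 reads and was 8.97-fold lower (6.76 to 12.1). Another, comp33026_c0, had 127 and 57 reads and was 3.37-fold lower (2.45 to 4.69). Over the 20 polygalacturonases with at least 10 reads the median log2 ratio was −0.41, and over the 16 with at least 10 in each library it was −0.49. No unigene with a best hit to a fungus or an oomycete was named as a polygalacturonase or xyloglucanase. Only 2 were named as a wall-degrading enzyme at all, both as endo-1,4-beta-glucanases, with 2 reads together in CK and 8 in CH. Both are among the endoglucanases counted below, and neither was called.

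Pectate and rhamnogalacturonan lyases, which cut pectin by elimination, had the lowest median ratio of the enzyme lists. Of 24 unigenes with reads, 1 was called higher and 8 lower, against 2.48% and 4.28% of all unigenes with reads. The median log2 ratio of the 17 with at least 10 reads over both libraries was −1.25. Of these, 6 reached 10 reads only in CK and 1 only in CH, which bears on the direction they could show, and the median of the 8 with at least 10 reads in each library was −1.60. Unigenes similar to pectate lyase 5 of Arabidopsis fell from 156 to 6 reads (comp27198_c1, 39.3-fold lower, 17.7 to 109) and from 105 to 3 reads (comp27198_c0, 53.0-fold lower, 17.6 to 261). Both come from 1 assembled component, as does comp27198_c2, also called lower. The lower comp30474_c0, comp30474_c2, comp30474_c3 and comp30474_c4 come from another component. Beyond these, the only lower call was comp16143_c0, the most abundant unigene of the list. It fell from 3,349 reads in CK to 397 in CH (144.75 and 11.3 RPKM, 12.8-fold lower, 11.5 to 14.2). Unigenes of 1 component may be pieces of 1 transcript, so the number of genes may be smaller than that of unigenes. The counts and medians above treat such pieces as separate unigenes. The 1 called higher was comp38596_c2, similar to a tomato pectate lyase, with 6 reads in CK and 47 in CH.

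Xyloglucan endotransglucosylase/hydrolases, which cut and rejoin xyloglucan, had 1 higher and 6 lower calls among 21 unigenes with reads. The unigene comp30872_c0, similar to XTH8, was 6.06-fold lower (5.01 to 7.38), and comp27683_c0, similar to the protein numbered 26 of Arabidopsis, dropped from 54 reads to 4. The higher one was comp21033_c0, with 14 and 84 reads. Endoglucanases and cellulases had 0 higher and 4 lower of 23, among them comp26946_c0, similar to endoglucanase 6, which was 4.07-fold lower (3.55 to 4.67), and comp29775_c1, which was 3.70-fold lower (2.93 to 4.69). Pectinesterases, which remove methyl groups from pectin, had 1 higher and 7 lower of 44. The higher one was comp31584_c0, with 11 and 60 reads, and the lower ones included comp36298_c0, 4.55-fold lower (3.65 to 5.73), and comp25807_c0, with 27 and 3 reads. The summed level of the pectinesterases still rose, from 1206.25 RPKM in CK to 1520.71 RPKM in CH. It fell in the other 4 of these enzyme classes. The most abundant pectinesterases, comp26697_c0 (448.29 and 806.87 RPKM) and comp32416_c0 (148.39 and 291.96 RPKM), were higher in CH but not called. The next, comp36847_c0 (144.84 and 44.33 RPKM), was called lower. The median log2 ratios were −0.23 for the xyloglucan enzymes, −0.47 for the endoglucanases and −0.56 for the pectinesterases, over 14, 11 and 27 unigenes with at least 10 reads. Over the 10, 10 and 24 of them that had as many in each library, the medians were −0.71, −0.51 and −0.52. Among all unigenes with reads, to which the counts of calls compare, 2.48% were called higher and 4.28% lower. Among those whose reads summed to at least 10 over both libraries, the shares were 4.54% and 7.71%. With a coefficient of variation of 0.4 assumed, only 2 lower calls were left among the lyases, and 0 calls in the other 4 of these enzyme classes.

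Inhibitors of another group of wall and sugar enzymes went both ways. The proteins that inhibit pectinesterases and invertases form 1 family, of which 4 unigenes were found, with 1 higher, 1 lower and 2 not called. With a coefficient of variation of 0.4 assumed, 0 of these calls were left, and the shares over all unigenes tested were 2.48% and 4.28%. The abundant comp34274_c0 fell from 4,272 reads in CK to 2,152 in CH (216.27 and 71.71 RPKM, 3.004-fold lower, 2.85 to 3.17). The rare comp30707_c0 had 13 and 55 reads, a ratio of 2.80 (1.51 to 5.58).

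**Figure D4:**
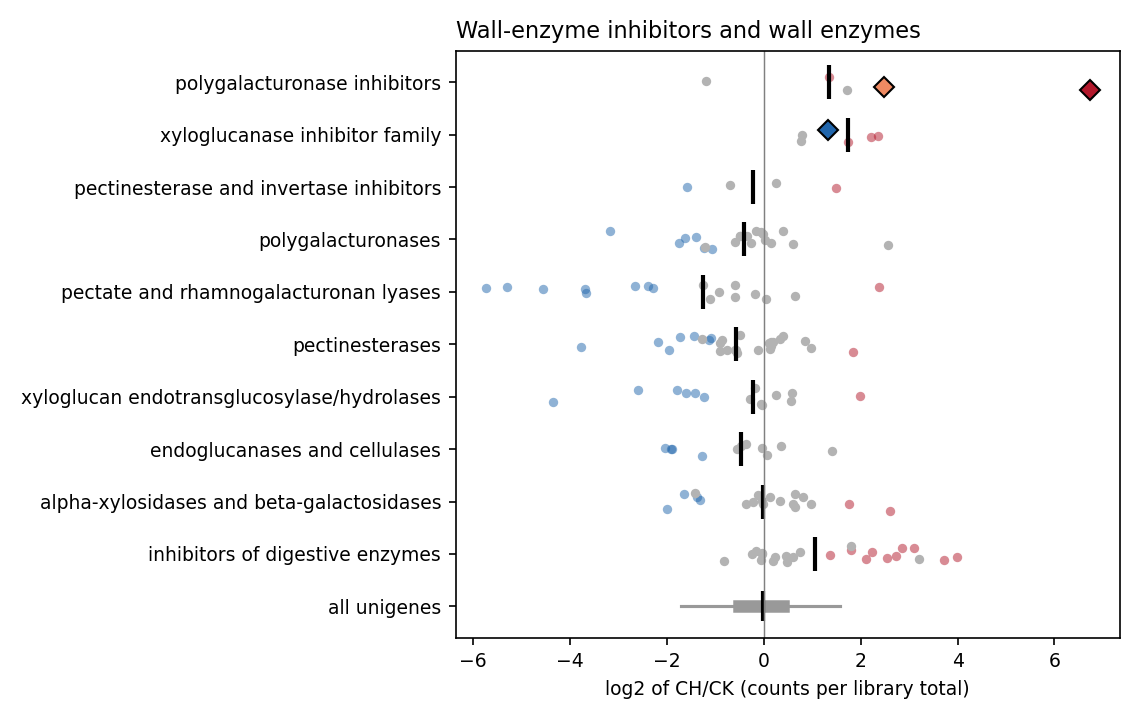
Log2 of the ratio of CH to CK (reads per library total, horizontal axis) for unigenes whose reads summed to at least 10, by list, with a unigene at 0 reads in a library set to a floor of 3. Diamonds are the 3 inhibitors, red and blue points were called higher and lower, grey points were not called, and the black bar is the median of a list without the 3. For all unigenes the thick and thin bars span the 25th to 75th and the 5th to 95th percentile. The PGIPs, the xyloglucanase inhibitor family and the inhibitors of digestive enzymes lie to the right of 0 for the most part, and the lyases to the left. The diamonds were chosen on this contrast. Of the other points in the first 3 of these lists, 1, 1 and 5 reached 10 reads only in CH. Of the lyases, 6 reached 10 reads only in CK. The pectinesterase and invertase inhibitors lie on both sides, 2 above 0 and 2 below.

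The unigenes with levels most like those of each inhibitor in the 2 libraries belong to other gene groups. Likeness was the distance between unigenes in log2(RPKM + 0.1) of CK and CH, over 2 libraries, and the 3 nearest with a Swiss-Prot name were taken. For comp24833_c0 they lay far off, at a distance of 1.12 to 1.75. They were comp36055_c0, similar to germacrene D synthase (0.29 and 35.68 RPKM), comp31063_c0, similar to a 13S-lipoxygenase (0.60 and 18.69 RPKM), and comp16044_c0, similar to a maize acidic ribosomal protein (0.18 and 26.67 RPKM). For comp27076_c0 they were comp38810_c1, similar to stachyose synthase (1.35 and 7.58 RPKM), comp30833_c0, similar to the ethylene-responsive factor ERF071 (1.53 and 7.99 RPKM), and comp31671_c0, a NAC factor (1.12 and 6.72 RPKM). For comp36158_c1 they were comp34306_c0, similar to a geranyl diphosphate synthase subunit of hop (6.69 and 14.37 RPKM), comp37527_c0, similar to a mitochondrial RNA polymerase (6.66 and 14.17 RPKM), and comp37971_c1, similar to auxin response factor 5 (7.07 and 14.62 RPKM). With 2 libraries such likeness is a description of the level in each and no more.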

How the data were processed

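Leaf RNA of 2 libraries, CK and CH, was sequenced in pairs of reads. Trinity was used by the authors to assemble unigenes from both libraries together, which were annotated by BLASTx and to which the reads were mapped back. The submitters' processing notes name DESeq. For the mapper and the counter, tool names were not given in the sources used here. The authors deposited an expected count of fragments per unigene, which is not normalized, an RPKM per effective length and library total, and a TPM scaled to a fixed sum per library. Unigenes have no genome position here.

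Expected counts were rounded. Ratios were computed per library total, with Clopper-Pearson intervals, and levels with exact Poisson intervals. Calls used the 2-sided Audic-Claverie test with Benjamini-Hochberg adjustment over all unigenes with at least 1 read. The test was also run on simulated data that held counting error only. Such data cannot show how the calls behave when libraries vary. The 10 lists were taken by words in the best hits, and inter-alpha-trypsin inhibitor heavy chains were left out of the last after their values were seen. List counts leave out the 3 inhibitors. The members and lists were chosen with earlier results of these data known. Named unigenes were every called unigene and the 4 most abundant of both inhibitor families. From each other list, up to 2 called in each direction were named, those whose interval bound nearest to 1 lay farthest from 1. The 3 nearest to each inhibitor and any unigene of the same component were named too. Others named, such as those of a family with few reads, were chosen after their values were seen. Results were also computed with a binomial test, with the exact test of edgeR at a coefficient of variation set to 0.2 or 0.4, with TMM and median of ratios scaling, other thresholds and pseudocounts. Python 3.11.15, scipy 1.17.1, R 4.3.3, edgeR 4.0.16 and DESeq2 1.42.0 (for the median of ratios) were used.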

Additional observations from a re-analysis of the deposited data

How the results depend on the processing

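The direction of all 3 inhibitors was the same under every scaling, unit and pseudocount tried, but this could hardly come out otherwise. The 3 were chosen on this contrast, and scaling moved log2 ratios by only 0.053 (TMM) and 0.078 (median of ratios). A pseudocount added to both libraries cannot reverse a ratio above 1. The sameness is therefore no support for the direction. With TMM and with median of ratios factors, the inhibitors had ratios of 110 and 112 for comp24833_c0, 5.77 and 5.87 for comp27076_c0, and 2.60 and 2.65 for comp36158_c1. A pseudocount of 1 on RPKM brought comp24833_c0 to 39.4 and comp27076_c0 to 3.62, outside their counting intervals, by its construction at low levels.

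Counts of calls depended mostly on the variation assumed between libraries, which these data do not give. With edgeR's exact test, a coefficient of variation of 0.2 gave 495 higher and 579 lower unigenes, and 0.4 gave 134 and 52. A 4-fold threshold gave 585 and 654, and 2-fold alone with at least 10 reads gave 2,263 and 3,049. Of the other PGIPs, the 1 higher call became 0 with the binomial test, with either coefficient, at 4-fold and at an adjusted p below 0.001, while 2-fold alone gave 2 higher and 1 lower. The 3 higher calls of the xyloglucanase inhibitor family became 0 with 0.4 and stayed 3 with 0.2. Over the other 8 lists, 107 of 144 counts stayed within 1.5 times, 33 were smaller and 4 larger. The settings differed widely in this. With 0.4 assumed, 13 of 16 counts were smaller, and the 3 that stayed were 0 from the start. The binomial test left 16 of 16 the same. The medians over unigenes with at least 10 reads in each library were added after the data were seen. No paired analysis was possible because each group has 1 library. The depth limits the PGIPs most, since comp24833_c0 had 13 reads in CK.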

Other observations

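Many inhibitors of digestive enzymes were also higher in CH. Of 28 unigenes named as inhibitors of trypsin, subtilisin, amylase or cysteine proteases, 10 were called higher and 0 lower, against 2.48% and 4.28% of all unigenes tested. The higher calls fell to 5 with a coefficient of variation of 0.2 assumed and to 0 with 0.4. The median log2 ratio was 0.49 over the 19 with at least 10 reads in each library, and 1.06 when 5 that reached 10 reads only in CH were included. The study chose several of these on the same libraries, so their direction is not independent evidence. The Bowman-Birk type trypsin inhibitor comp38186_c0 was by far the most abundant, at 7503 RPKM in CK and 54716 in CH, 7.22-fold higher (7.17 to 7.28). The alpha-amylase/subtilisin inhibitor comp28610_c0 rose 8.59-fold (7.93 to 9.31). At 272.22 RPKM in CH it was above comp24833_c0 (61.33), but in CK it was already at 31.83 RPKM, where comp24833_c0 was at 0.58.

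Enzymes that trim side chains of xyloglucan and pectin had calls in both directions. Their summed level rose, from 850.21 RPKM in CK to 2100.31 RPKM in CH. Among 24 unigenes of alpha-xylosidases and beta-galactosidases, 2 were called higher and 4 lower, against the same shares of all unigenes, and 0 of either with a coefficient of variation of 0.4. The abundant beta-galactosidase comp38776_c2, similar to that of apple, had 203.06 RPKM in CK and 1239.99 in CH, a 6.12-fold rise (5.99 to 6.25), and comp28367_c0, similar to beta-galactosidase 8, rose 3.40-fold (3.23 to 3.58). Another, comp36873_c0, fell 3.96-fold (3.38 to 4.65), and comp30949_c0 fell 3.10-fold (2.36 to 4.11).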
